A study of Mus musculus with 48 samples.

Results

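The 10 genes described here are targets of NRF2 (gene symbol Nfe2l2), the transcription factor that switches on antioxidant and detoxifying genes: Hmox1, Nqo1, Gclm, Gclc, Txnrd1, Srxn1, Slc7a11, Gsr, Sqstm1 and Prdx1. They were chosen by name as well-known NRF2 targets, with earlier results of these data known, and all 10 were found among the 49568 genes of the count table. The shares of all genes given below are therefore a background and not a test of the list. In resting cells NRF2 is bound by KEAP1, which presents it to a ubiquitin ligase built on CUL3 and RBX1, so that it is degraded. Oxidants and electrophiles modify KEAP1, NRF2 then accumulates, pairs with a small MAF protein (MAFF, MAFG or MAFK) and binds antioxidant response elements, sites that BACH1 occupies as a repressor. In macrophages this pathway limits the damage from the reactive oxygen and nitrogen species that the cells make when activated.

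RAW264.7 cells, a mouse macrophage line, were cultured for 72 h with PBS or with 100 µg/ml of a synthetic peptide of 15 residues, each with or without IFN-γ at 5 ng/ml, and the medium was changed at 48 h. IFN-γ is the cytokine of T cells and natural killer cells that activates macrophages. The peptides cover residues 65 to 79 of HLA-DR β chains and are called LE (65-79*0301, from an allele tied to lupus), SE (65-79*0401, from an allele tied to rheumatoid arthritis) and PE (65-79*0402, from an allele tied to protection from rheumatoid arthritis). The 8 groups are PBS, LE, SE, PE, IFN-γ (IFNy in the labels), LE+IFN-γ, SE+IFN-γ and PE+IFN-γ, each with 3 letter-labelled libraries. All groups share the same mouse cell line, which carries no human HLA genes, and the peptides were added to its medium.

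The letter-labelled libraries held 16.5 to 26.9 M counts (median 22.9 M), and levels are given as CPM, the counts of a gene scaled by its library's total to a common sum. Averaged over 20 genes that IFN-γ is known to induce, log2 CPM was 6.70 to 7.08 in the 12 libraries labelled with IFN-γ and 1.87 to 2.02 in the 12 without it, so 0 of 24 went against the label. A further 24 libraries, whose labels carry HLA numbers, were kept apart because 12 of 24 went against their IFN-γ label on the same genes and because the deposited table sets them beside other groups than their labels do, and their values are given in the closing section. All 8 macrophage markers looked at (among them Adgre1, Csf1r and Cd68) were above 1 CPM, with a summed level of 9721 to 12300.0 CPM without IFN-γ and 6885 to 9270.0 CPM with it, while markers of T cells, B cells, epithelium and fibroblasts summed to at most 0.0819, 0.346, 0.667 and 1.84 CPM. Osteoclast genes, which this line can express, summed to 248.0 to 297 CPM without IFN-γ and 83.5 to 101.2 CPM with it. Both sums were lower in every IFN-γ library, and their part in the results below was not tested. Single markers did not all fall. In IFN-γ against PBS, by the test given below, 2 of 8 macrophage markers were called higher and 0 lower. Of 5 osteoclast genes tested, 1 was called higher and 3 lower. Of all genes, 9.79% were called higher and 8.28% lower. In bulk RNA such as this, fewer cells that express a gene and less RNA of that gene per cell cannot be told apart. The study's figure legends call the replicates biological and give 2 independent experiments for this cell line. Nothing in the labels says which libraries belong to which experiment, or how the 3 libraries of a group were kept apart in culture. The p-values therefore measure the spread between these libraries.

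The stretches just upstream of 4 members are shown first because the antioxidant response element is the sequence through which NRF2 acts, and because a searched motif was found in them. They run from 250 bases before the RefSeq start to the base before the GENCODE gene start, 5′ to 3′ on the gene's own strand, and come from RefSeq promoter windows (250 bases before to 50 after the start, build GRCm38.p6), which were found for 7 of the 10 members and not for Hmox1, Gclc and Gsr. Capitals mark motif matches, and a match on the opposite strand reads as its reverse complement.
Gclm, chr3:122245307-122245556, plus strand: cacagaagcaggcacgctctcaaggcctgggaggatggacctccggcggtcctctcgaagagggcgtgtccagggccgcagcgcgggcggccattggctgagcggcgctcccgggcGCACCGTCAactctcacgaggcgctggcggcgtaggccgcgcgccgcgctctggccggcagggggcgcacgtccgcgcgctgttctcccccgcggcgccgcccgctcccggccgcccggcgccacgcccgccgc
Prdx1, chr4:116685349-116685543, plus strand: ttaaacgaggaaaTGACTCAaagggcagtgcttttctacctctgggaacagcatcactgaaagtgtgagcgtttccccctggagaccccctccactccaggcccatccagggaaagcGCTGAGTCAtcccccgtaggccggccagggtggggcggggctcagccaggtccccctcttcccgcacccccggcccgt
Srxn1, chr2:152105274-152105515, plus strand: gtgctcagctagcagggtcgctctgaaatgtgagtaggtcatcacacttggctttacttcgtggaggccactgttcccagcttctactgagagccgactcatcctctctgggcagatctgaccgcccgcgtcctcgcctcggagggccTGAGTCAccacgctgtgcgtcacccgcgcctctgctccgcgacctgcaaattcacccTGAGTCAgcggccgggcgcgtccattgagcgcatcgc
Slc7a11, chr3:50443615-50443863, minus strand: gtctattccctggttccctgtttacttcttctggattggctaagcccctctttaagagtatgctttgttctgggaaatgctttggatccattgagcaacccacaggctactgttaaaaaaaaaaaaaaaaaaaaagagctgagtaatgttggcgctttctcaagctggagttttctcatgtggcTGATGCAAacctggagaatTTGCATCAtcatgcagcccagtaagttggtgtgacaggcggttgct
Each motif was searched on both strands of all windows.

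The core of the antioxidant response element, TGACNNNGC, was present in 4 of the 9 windows of the 7 members (1 each of Gclm, Txnrd1, Srxn1 and Prdx1) and in 12.4% of all 32851 windows. Txnrd1 has 3 windows, and its match lay 92 to 84 bases before the RefSeq start of the second, which is not printed. In Gclm it lay 134 to 126 bases before the RefSeq start, and in Prdx1 133 to 125 bases before it. The Srxn1 match, 28 to 36 bases after the start, is outside the stretch printed. The AP-1 site TGACTCA occurred in 2 of the 9 windows, those of Srxn1 and Prdx1, and in 5.2% of all windows. In Prdx1 the AP-1 site 131 to 125 bases before the start overlaps the antioxidant response element, so that both motifs read the same letters. Slc7a11 held the core of the amino acid response element, TGATGCAA, in both orientations, 66 to 59 and 47 to 40 bases before the start, and this motif was found in 0.895% of all windows. The letters are a description of these windows and not evidence that a factor was bound in these cells.

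On the GRCm38 build, Hmox1 (ENSMUSG00000005413.8) lies at chr8:75093621-75100589 on the plus strand, Slc7a11 (ENSMUSG00000027737.10) at chr3:49892526-50443614 on the minus strand, Gclm (ENSMUSG00000028124.15) at chr3:122245557-122270732 on the plus strand and Prdx1 (ENSMUSG00000028691.12) at chr4:116685544-116700822 on the plus strand, and the counts cover their exons. Levels of the members differed widely between genes. Compared per length (RPKM, CPM divided by the exon length in kb), Sqstm1, the autophagy receptor p62 that also binds KEAP1, had group means of 766 to 1548, Hmox1, heme oxygenase 1, of 253 to 1249, and Prdx1, a peroxide-reducing peroxiredoxin, of 260.5 to 894.5 RPKM. Srxn1, which repairs over-oxidised peroxiredoxins, Txnrd1, cytosolic thioredoxin reductase, and Gsr, glutathione reductase, were between 21.1 and 99.97 RPKM. Gclc and Gclm, the catalytic and the modifier subunit of the enzyme that sets the rate of glutathione synthesis, and Slc7a11, the cystine importer xCT that supplies it, were between 3.04 and 27.9 RPKM. Nqo1, the quinone reductase often used as the readout of NRF2, was nearly silent in this line, at 5 to 37 counts per library (0.21 to 0.677 RPKM). Between the lowest and the highest of the 8 group means the level of Slc7a11 differed 6.09-fold, that of Hmox1 4.94-fold, that of Gclm 4.68-fold and that of Prdx1 3.43-fold, while Gclc differed 1.35-fold. The highest mean was with SE+IFN-γ for Hmox1, Nqo1, Gclm, Srxn1, Sqstm1 and Prdx1 and with LE+IFN-γ for Gclc, Txnrd1, Slc7a11 and Gsr. The lowest was with PBS for Hmox1, Srxn1, Sqstm1 and Prdx1 and with PE for the other 6. In the order of means, the 4 groups without IFN-γ overlapped their neighbours for Hmox1 and Gclm, and SE lay clear of the neighbouring PE for Slc7a11, Srxn1, Sqstm1 and Prdx1. For Gclm SE (47.3 to 64.1 CPM) was also clear of PE (34.4 to 40.2 CPM), with the mean of PBS between them. The share of all genes with such gaps was not counted.

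**Figure D1:**
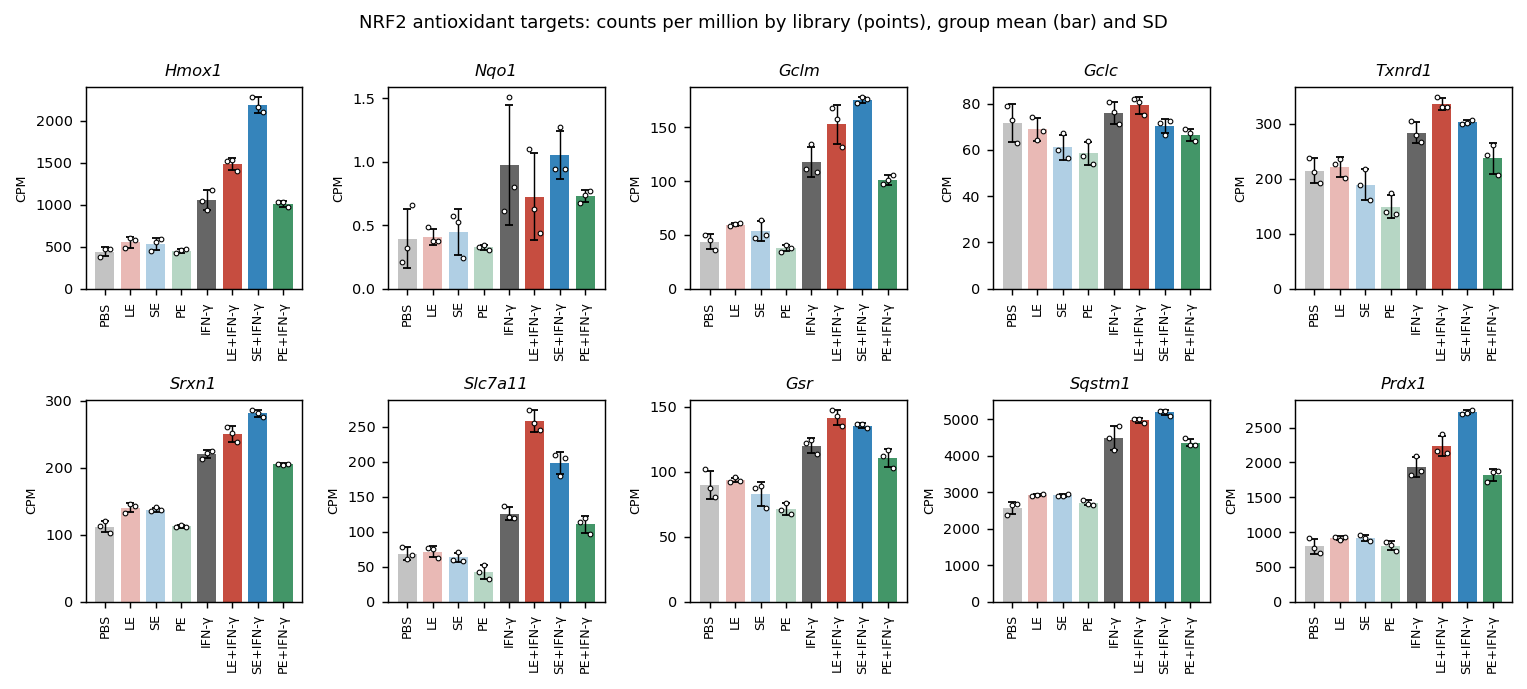
Level of each NRF2 target in CPM (linear axis from 0) in the 8 groups, with open points for the 3 libraries, bars for the group mean and whiskers for the SD; pale bars are groups without IFN-γ. For Hmox1 the SE+IFN-γ libraries sit between 2108 and 2289 CPM and for Slc7a11 the LE+IFN-γ libraries sit highest, between 245 and 274 CPM, while Gclc stays between 54.0 and 82.1 CPM throughout.

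The first question was whether IFN-γ by itself moved the NRF2 targets. It did for most: 6 of 10 members rose in IFN-γ against PBS and 0 fell, where 9.79% of the 12242 genes tested rose and 8.28% fell (edgeR quasi-likelihood test, adjusted p under 0.05 and fold change over 1.5, the rule for every call here). The median log2 fold change was 0.94 over the 10 members and -0.0087 over all genes tested. The 6 were Hmox1, Gclm, Prdx1, Srxn1, Slc7a11 and Sqstm1. At any fold change, 8 of 10 members had an adjusted p under 0.05, as did 39.7% of genes.

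Hmox1, which breaks heme down to biliverdin, iron and carbon monoxide, had 383, 469 and 476 CPM in the 3 PBS libraries and 1051, 937 and 1176 CPM in the 3 IFN-γ libraries. The lowest IFN-γ library was above the highest PBS library, and the log2 fold change was 1.27 (standard error 0.11, adjusted p 4.92e-06, n = 3 per group). Gclm had 49.5, 45.0 and 35.9 CPM with PBS and 111, 134 and 108.5 CPM with IFN-γ, again with no overlap. Its log2 fold change of 1.46 (standard error 0.12, adjusted p 2.38e-06) was the largest among the members called. Prdx1 had 913, 763 and 702 CPM with PBS and 1822, 2094 and 1881 CPM with IFN-γ, a log2 fold change of 1.30 (standard error 0.10, adjusted p 1.75e-06). Its libraries did not overlap either.

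Srxn1 went from 103 to 120.0 CPM with PBS to 214 to 225 CPM with IFN-γ (log2 fold change 0.99, standard error 0.08, adjusted p 1.48e-06). Slc7a11 had 78.5, 60.4 and 66.9 CPM with PBS and 136, 121 and 119.9 CPM with IFN-γ, and rose by 0.89 on the log2 scale (standard error 0.09, adjusted p 1.68e-05). Sqstm1 rose by 0.82 (standard error 0.09, adjusted p 3.43e-05) from 2372, 2663 and 2682 CPM to 4503, 4158 and 4816 CPM. Both reductases had smaller values. Txnrd1 had a log2 fold change of 0.42 (standard error 0.08, adjusted p 0.00178) and Gsr one of 0.435 (standard error 0.08, adjusted p 0.00166), each under the fold change of 1.5. Gclc was at 62.8 to 78.8 CPM with PBS and 71.1 to 80.6 CPM with IFN-γ, which overlap, and its log2 fold change of 0.10 had a 95% interval of -0.09 to 0.29. The difference between these subunits of the same enzyme was not tested. Gclm shares exon sequence with Gm6061 on its own strand, and Sqstm1 with Mrnip on the other, and whether the counting used strand is not given in the sources used here, so these values are less certain.

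Nqo1 was at 0.211, 0.317 and 0.657 CPM with PBS and 0.615, 1.51 and 0.802 CPM with IFN-γ. These ranges overlap and rest on few counts, and the log2 fold change of 1.34 (standard error 0.495, adjusted p 0.0502) did not pass. It did pass with the replicate block (adjusted p 0.038), without replicate 3 (adjusted p 0.0244), without the filter on low counts (adjusted p 0.0169) and in 1 fit of all 8 groups (adjusted p 0.0115), so the call depends on those settings.

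The same question was then asked on each peptide background (peptide plus IFN-γ against peptide alone). IFN-γ raised 6 of 10 members over LE, 9 over SE and 8 over PE, where 19.1%, 15.1% and 12.1% of the 12947 genes tested rose. On these backgrounds 0 members fell, where 15.9%, 11.3% and 8.82% of genes did. At any fold change 9, 10 and 9 members had an adjusted p under 0.05, as did 65.9%, 57.5% and 49.9% of genes. The comparisons over LE, SE and PE were fitted together, while that over PBS was a separate fit, so the 4 backgrounds are set side by side and not ranked. The median log2 fold change of the members was 0.80, 1.08 and 0.95, and that of all genes was -0.00075, -0.0031 and 0.011. Over SE, Gclc was the member not called, with a log2 fold change of 0.16 (standard error 0.07, adjusted p 0.0449). Over PE, Gclc (0.14, standard error 0.07) and Gsr (0.58, standard error 0.06) were not called, and over LE neither were Nqo1, Gclc, Txnrd1 and Gsr. Txnrd1 and Gsr lay close to the fold change minimum on every peptide background, between 0.57 and 0.67, so that their calls turn on small differences. The Nqo1 calls, 1.175 over SE (adjusted p 0.00741) and 1.10 over PE (adjusted p 0.0266), rest on few counts. That over SE was lost without replicate 2 or 3 (adjusted p 0.0759 and 0.0623), and that over PE without any 1 replicate (adjusted p 0.0771 to 0.14), with DESeq2 (adjusted p 0.052), without the filter on low counts (adjusted p 0.0686) and in 1 fit of all 8 groups (adjusted p 0.0517). Txnrd1 over SE fell short of the minimum without replicate 3 (0.55) and over PE without replicate 1 (0.56).

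**Figure D2:**
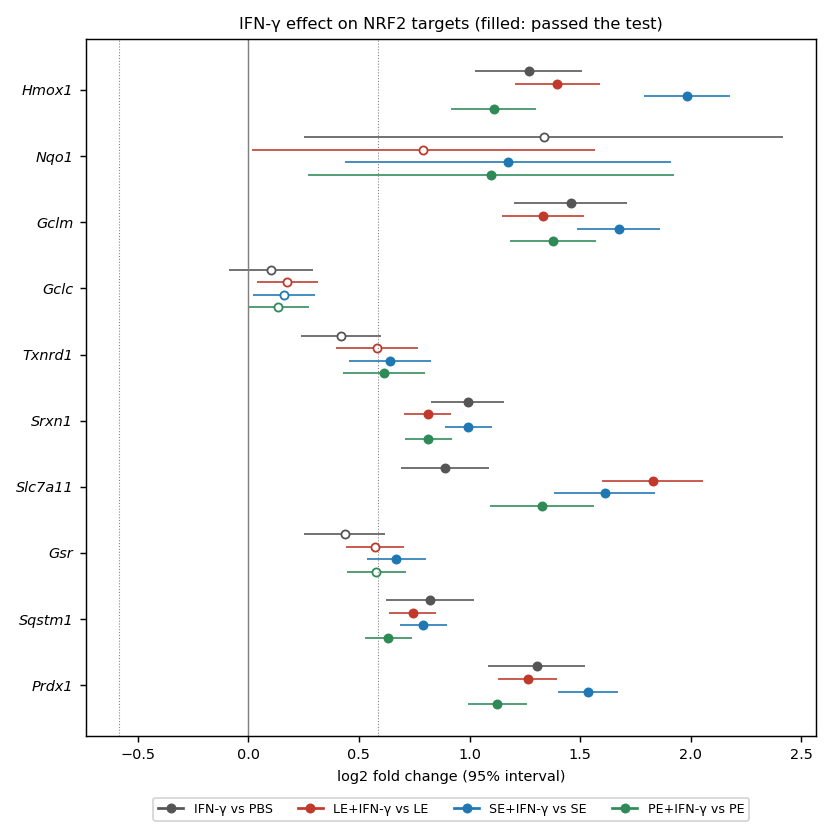
Log2 fold change (linear axis) of each NRF2 target with IFN-γ against its matched group without IFN-γ, over PBS (grey), LE (red), SE (blue) and PE (green); points are estimates, lines 95% intervals, filled points passed the test, and dotted lines mark a fold change of 1.5. Hmox1 with SE (1.98) and Slc7a11 with LE (1.83) lie farthest right of the called points, and the 4 points of Gclc lie between 0.10 and 0.18.

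Taking the 4 backgrounds together, the 12 libraries with IFN-γ lay entirely above the 12 without it for 7 of 10 members, where this was so for 10.5% of 12220 genes, and 0 lay entirely below, where 9.04% did. The 7 were Hmox1, Gclm, Srxn1, Slc7a11, Gsr, Sqstm1 and Prdx1. For Prdx1 the libraries without IFN-γ ran from 702 to 957 CPM (median 874) and those with it from 1717 to 2760.0 CPM (median 2116). For Gsr, whose fold change was small, the ranges were 67.6 to 102 CPM and 103 to 148 CPM, next to each other without overlap. Txnrd1, Gclc and Nqo1 overlapped.

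Adding a peptide to IFN-γ changed at most 3 of the 10 members. LE+IFN-γ against IFN-γ raised 1 of 10 members, Slc7a11, where 9.58% of the 12720 genes tested rose and 5.93% fell. SE+IFN-γ raised 3, Hmox1, Gclm and Slc7a11, where 5.01% rose and 2.38% fell. PE+IFN-γ changed 0 of 10 members, where 0.629% of genes changed. For PE, 4 members had an unadjusted p under 0.05 in edgeR, as did 3580 of the 12720 genes, and DESeq2 also called 0 members. These comparisons share the IFN-γ libraries.

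Hmox1 had 2289, 2165 and 2108 CPM with SE+IFN-γ, 1518, 1532 and 1407 CPM with LE+IFN-γ and 1035, 1029 and 973 CPM with PE+IFN-γ, beside 1051, 937 and 1176 CPM with IFN-γ. The SE+IFN-γ libraries stood above all others, the LE+IFN-γ libraries came next without overlap, and the PE+IFN-γ libraries lay within the range of IFN-γ. SE added 1.08 on the log2 scale (standard error 0.07, adjusted p 4.22e-09). LE added 0.51 (standard error 0.07, adjusted p 9.11e-06), a fold change of 1.42 and so short of the minimum, although it passed without replicate 3 (0.64) and with the trend on exon length and GC content described below subtracted (0.59). PE added -0.03, with a 95% interval of -0.18 to 0.11. Between the peptides directly, LE+IFN-γ against SE+IFN-γ gave -0.57 (standard error 0.07, adjusted p 2.27e-05), a fold change of 0.674 that also fell short of the minimum with all replicates, and SE+IFN-γ was above PE+IFN-γ by 1.11 (standard error 0.07, adjusted p 3.72e-09). Without replicate 2 the difference between LE+IFN-γ and SE+IFN-γ passed, at -0.60 (adjusted p 3.86e-05).

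Slc7a11 had the other order. Its 3 LE+IFN-γ libraries were at 274, 255 and 245 CPM, the SE+IFN-γ libraries at 209, 179 and 205 CPM, the PE+IFN-γ libraries at 114, 120.1 and 97.1 CPM and the IFN-γ libraries at 136, 121 and 119.9 CPM. LE and SE were both clear of IFN-γ and of each other, and PE overlapped IFN-γ. LE added 1.05 (standard error 0.07, adjusted p 5.16e-09) and SE added 0.68 (standard error 0.07, adjusted p 1.79e-06). LE+IFN-γ exceeded PE+IFN-γ by 1.21 (standard error 0.07, adjusted p 8.49e-10) and SE+IFN-γ exceeded it by 0.84 (standard error 0.07, adjusted p 2e-07). The difference between LE+IFN-γ and SE+IFN-γ was 0.37 (standard error 0.07, adjusted p 0.00101), under the minimum.

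A trend of fold changes with exon length and GC content across genes was looked for, fitted and subtracted as an alternative. IFN-γ against PBS had almost no monotonic trend with length (Spearman's rho -0.0398), yet the subtraction moved Hmox1 there from 1.27 to 1.14, Prdx1 from 1.30 to 1.12 and Gsr from 0.435 to 0.29, and left the 6 called members past the minimum. Over the peptides it took Txnrd1 over SE to 0.544 and Txnrd1 and Sqstm1 over PE to 0.584 each, under the minimum of 0.585. The comparison of peptides with each other in IFN-γ carried more of a trend. LE+IFN-γ against SE+IFN-γ had one with length (rho 0.355 over 12343 genes, which are not independent replicates) and GC content (rho -0.466). Slc7a11 is the longest of the members, with 13922 bases of exon sequence and a GC content of 40.7%, and Hmox1 is short, with 1751 bases and 53.3%. With the trend over all genes subtracted, the difference between LE+IFN-γ and SE+IFN-γ was 0.03 for Slc7a11 and -0.415 for Hmox1. For Slc7a11 the value of LE+IFN-γ against IFN-γ went from 1.05 to 0.70 and that of LE+IFN-γ against PE+IFN-γ from 1.21 to 0.66. For Hmox1 LE+IFN-γ against PE+IFN-γ went from 0.54 to 0.74 and so past the minimum. PE+IFN-γ against IFN-γ carried a trend of the opposite sign (rho -0.386 with length), and the Slc7a11 value there went from -0.16 to 0.02. SE+IFN-γ against IFN-γ had little trend (rho -0.0564 with length), and its values after subtraction were 1.005 for Hmox1 and 0.67 for Slc7a11.

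Gclm had 173, 178 and 176 CPM with SE+IFN-γ, 168, 158 and 132 CPM with LE+IFN-γ and 96.9, 101 and 105.5 CPM with PE+IFN-γ. The SE+IFN-γ libraries were close together and above all others, while the LE+IFN-γ libraries reached down into the range of IFN-γ (108.5 to 134 CPM). With SE, Gclm rose by 0.60 (standard error 0.08, adjusted p 1.42e-05), a fold change of 1.52 just past the minimum, and it no longer passed without replicate 1 (0.57), without replicate 3 (0.56) or with the trend subtracted (0.578). With LE its value was 0.39 (standard error 0.08, adjusted p 0.00055) and 0.14 once the trend was subtracted. Prdx1 was close to the minimum in the same way. Its SE+IFN-γ libraries, at 2697, 2709 and 2760.0 CPM, were above every other library, its value against IFN-γ was 0.52 (standard error 0.06, adjusted p 3.68e-06) and against PE+IFN-γ 0.58 (standard error 0.06, adjusted p 1.28e-06), a fold change of 1.498 just under the minimum, which it passed in 7 of the other settings (0.585 to 0.608).

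None of the remaining members passed the test when a peptide was added to IFN-γ. Srxn1 gave 0.38 with SE and 0.20 with LE, Sqstm1 0.24 and 0.16, and Gsr 0.20 and 0.255, all with an adjusted p under 0.05 but with fold changes of 1.12 to 1.30. Txnrd1 gave 0.26 with LE (standard error 0.07, adjusted p 0.0025), 0.12 with SE (adjusted p 0.164) and -0.23 with PE (standard error 0.07, adjusted p 0.0341). Gclc gave -0.16 to 0.08 for the 3 peptides, and Nqo1 gave -0.41 with LE, 0.12 with SE and -0.40 with PE, with standard errors of 0.36, 0.35 and 0.37. Counting every adjusted p under 0.05 whatever its fold change, LE gave 8 of 10 members that differed from IFN-γ, SE 7 and PE 1, where 50.5%, 33.4% and 10% of all genes did.

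**Figure D3:**
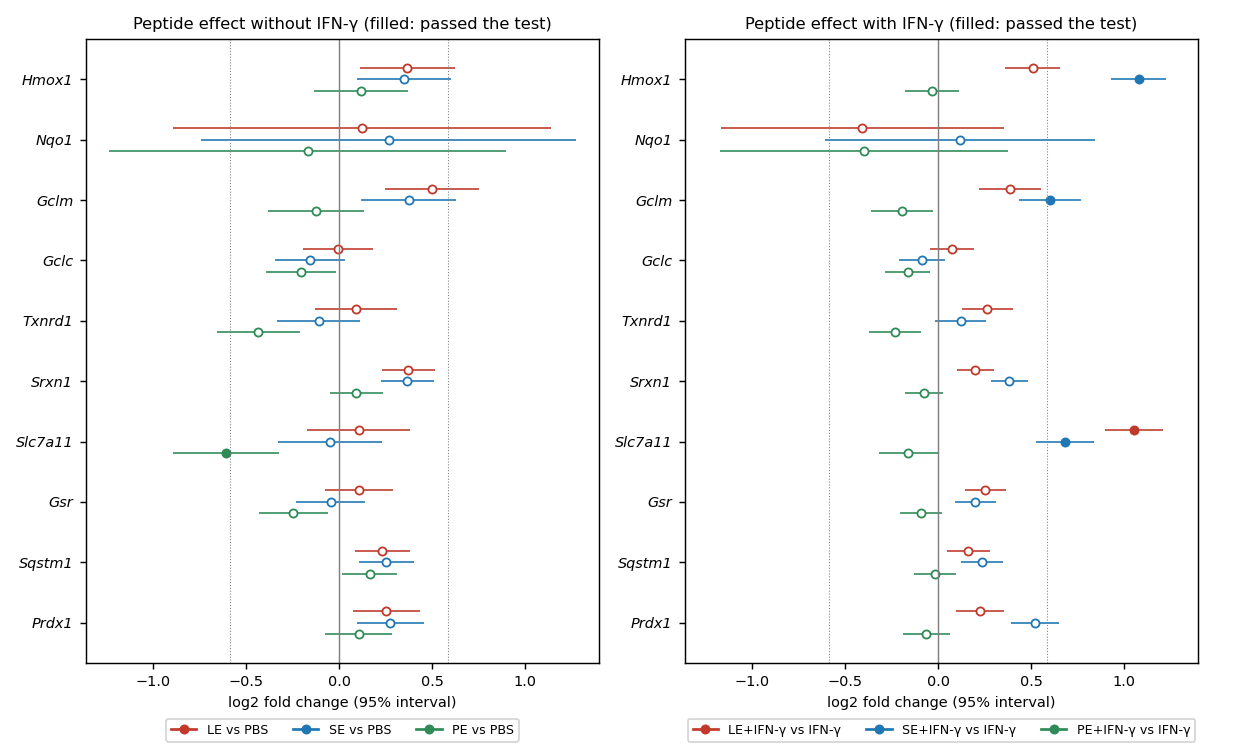
Log2 fold change (linear axis) of each NRF2 target with a peptide, without IFN-γ against PBS (left) and with IFN-γ against IFN-γ (right), for LE (red), SE (blue) and PE (green); lines are 95% intervals, filled points passed the test, and dotted lines mark a fold change of 1.5. On the right Slc7a11 is filled for LE (1.05) and SE (0.68) and Hmox1 and Gclm for SE (1.08 and 0.60), while on the left only Slc7a11 with PE (-0.61) is filled.

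The 3 pairs of peptides in the presence of IFN-γ were also compared directly, with p-values adjusted over genes within each pair. LE+IFN-γ and SE+IFN-γ differed at 0 of 10 members, where 4.93% of genes differed, and DESeq2 also called 0. In edgeR 7 members had an unadjusted p under 0.05, as did 5751 of 12720 genes. At an adjusted p under 0.05 in edgeR there were 6 members, beside 35.6% of genes. Of those 6, Hmox1, Prdx1 (-0.30), Gclm (-0.215) and Srxn1 (-0.18) had higher levels with SE and Slc7a11 and Gclc (0.16) with LE. LE+IFN-γ was higher than PE+IFN-γ at 1 member, Slc7a11, where 12.7% of genes were higher and 8.94% lower. SE+IFN-γ was higher than PE+IFN-γ at 3, Hmox1, Gclm and Slc7a11, where 5.25% were higher and 2.34% lower. At any fold change 9 and 8 members differed from PE+IFN-γ at an adjusted p under 0.05, as did 59.9% and 34.4% of genes.

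Without IFN-γ the peptides changed at most 1 NRF2 target each. LE changed 0 of 10 members, where 0.0242% of the 12420 genes tested changed, and SE changed 0, where 1.92% did. In edgeR 5 members had an unadjusted p under 0.05 for each of these peptides, and DESeq2 called 0 for both. Of the 12420 genes, 1953 had an unadjusted p under 0.05 in edgeR with LE and 3975 with SE. At an adjusted p under 0.05 and any fold change, 0 members differed with LE, 4 with SE (14.3% of genes) and 2 with PE (20% of genes). The largest positive value was that of Gclm with LE, 0.50 (95% interval 0.25 to 0.755, edgeR adjusted p 0.201). With SE Gclm gave 0.37 (edgeR adjusted p 0.0486). With the length and GC trend subtracted these Gclm values were 0.655 and 0.565. LE and SE gave like values for Srxn1 (0.37 and 0.37) and Hmox1 (0.37 and 0.35), and against PBS the Srxn1 value with SE had an adjusted p of 0.00771 (edgeR) at a fold change of 1.29. The 3 LE libraries of Srxn1 were at 132.5 to 146 CPM and the 3 SE libraries at 135 to 141 CPM, all above the 103 to 120.0 CPM of PBS. These comparisons share the PBS libraries.

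PE lowered 1 of 10 members, Slc7a11, where 2.48% of genes fell and 0.652% rose. Its PE libraries had 42.4, 52.3 and 32.4 CPM and its PBS libraries 78.5, 60.4 and 66.9 CPM, which do not overlap. The level fell by 0.61 on the log2 scale (standard error 0.13, adjusted p 0.00999). The call was lost without replicate 1 (-0.51, adjusted p 0.207) and without replicate 3 (-0.48, adjusted p 0.0609). This comparison, too, carried a trend on exon length (rho -0.452) and GC content (rho 0.419), and with the trend subtracted the value for Slc7a11 was -0.22. Txnrd1 had 139.7, 173 and 135 CPM with PE and 238, 212 and 193 CPM with PBS, a difference of -0.435 (standard error 0.10, adjusted p 0.0141) under the fold change minimum.

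Whether a peptide altered the response to IFN-γ itself was tested by an interaction term, the IFN-γ effect with the peptide minus that without it. For LE, 1 of 10 members was higher, Slc7a11, where 11.3% of the 13096 genes tested were higher and 7.58% lower. Its interaction was 0.94 (standard error 0.15, adjusted p 5.06e-05). For SE, 2 of 10 were higher, where 5.08% of genes were higher and 2.89% lower: Hmox1 at 0.72 (standard error 0.15, adjusted p 0.00129) and Slc7a11 at 0.73 (standard error 0.15, adjusted p 0.00175). For PE, 0 of 10 members and 0% of genes were called, and DESeq2 called 0 members. In edgeR 3 members had an unadjusted p under 0.05, as did 1073 of the 13096 genes. At any fold change 1 member for LE, 2 for SE and 0 for PE had an adjusted p under 0.05, as did 38.5%, 19.8% and 0% of genes. With the length and GC trend subtracted the Slc7a11 value became 0.34 for LE and 0.38 for SE, while that of Hmox1 for SE was 0.845. Without replicate 1 the Slc7a11 interaction for SE was 0.60 (adjusted p 0.097) and did not pass.

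For Gclm, Srxn1, Sqstm1 and Prdx1 no interaction passed the test. The 95% intervals of Sqstm1 ran from -0.26 to 0.10 with LE and from -0.21 to 0.16 with SE, and those of Prdx1 from -0.265 to 0.18 and from 0.02 to 0.46. A change in the IFN-γ response of Sqstm1 by 1.5-fold or more (0.585 on the log2 scale) lies outside both of its intervals.

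The regulators of the pathway were looked at next. Nfe2l2, which encodes NRF2 itself, was at 211, 199.9 and 205 CPM with PBS and 144, 147 and 129.8 CPM with IFN-γ. It was lower in all 3 IFN-γ libraries, by a log2 difference of -0.54 (standard error 0.07, adjusted p 8.11e-05) that was under the minimum. Of the 8 regulators, 0 passed the test in IFN-γ against PBS, where 18.1% of genes did. DESeq2 called 0 as well. With the length and GC trend subtracted the value of Nfe2l2 was -0.69, past the minimum. In edgeR 5 had both an unadjusted and an adjusted p under 0.05, and beside Nfe2l2 these were Keap1 (0.26), Rbx1 (-0.25), Mafg (0.44) and Mafk (0.41). Of the 12242 genes tested, 5892 had an unadjusted and 39.7% an adjusted p under 0.05 in edgeR. The 6 members named above rose in these libraries, and NRF2 protein was not among the measurements analysed here.

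With a peptide added to IFN-γ, 1 of 8 regulators rose for LE and 1 for SE, in both cases Maff, a small MAF partner of NRF2 and BACH1, where 9.58% and 5.01% of genes rose. Maff was at 20.5, 21.6 and 22.2 CPM with LE+IFN-γ and 23.1, 20.4 and 20.3 CPM with SE+IFN-γ. It was at 7.54, 5.97 and 5.66 CPM with IFN-γ and at 7.86, 7.30 and 6.13 CPM with PE+IFN-γ, far below and without overlap. LE and SE added 1.76 each (standard error 0.11 for both, adjusted p 1.12e-09 and 2.88e-09), PE added 0.17 (adjusted p 0.371), and LE+IFN-γ and SE+IFN-γ differed by 0.002 with a 95% interval of -0.20 to 0.21. The calls for LE and SE held in all 8 other settings of the letter-labelled libraries that were refitted, with values of 1.66 to 1.93 and 1.73 to 1.82. Its relatives Mafg and Mafk gave -0.17 to 0.155 for the 3 peptides against IFN-γ.

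Of the other regulators, Keap1, Bach1, Cul3 and Nfe2l2 had an adjusted p under 0.05 in LE+IFN-γ against IFN-γ, at less than the minimum, and Rbx1 (-0.03), Mafg (0.09) and Mafk (0.13) did not. Keap1, the NRF2 repressor, was lowest there, at 82.6, 79.1 and 76.99 CPM against 111, 113 and 101 CPM with IFN-γ, a difference of -0.43 (standard error 0.06, adjusted p 5.33e-06) under the minimum. Bach1 was highest there, at 51.9, 45.6 and 49.8 CPM, and Cul3 likewise, at 86.1, 89.6 and 88.7 CPM. Against IFN-γ these gave 0.53 (standard error 0.08, adjusted p 2.5e-05) and 0.46 (standard error 0.07, adjusted p 3.69e-05), and against PE+IFN-γ they passed, at 0.92 for Bach1 (standard error 0.08, adjusted p 4.18e-08) and 0.73 for Cul3 (standard error 0.07, adjusted p 1.48e-07). With the length and GC trend subtracted the last values were 0.71 and 0.36. Nfe2l2 was higher with LE+IFN-γ (168 ± 4.43 CPM, SD, n = 3) than with IFN-γ (140.1 ± 9.03 CPM), a difference of 0.28 (standard error 0.06, adjusted p 0.000458) under the minimum. Without IFN-γ, Bach1 fell with SE (-0.67, standard error 0.19, adjusted p 0.0312) and with PE (-0.77, standard error 0.19, adjusted p 0.0147), and 1 PBS library at 45.4 CPM stood above the other two at 30.2 and 29.2 CPM. Without replicate 1, to which that library belongs, neither call held, and the call for SE held neither without replicate 3 nor with the trend subtracted (-0.56).

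**Figure D4:**
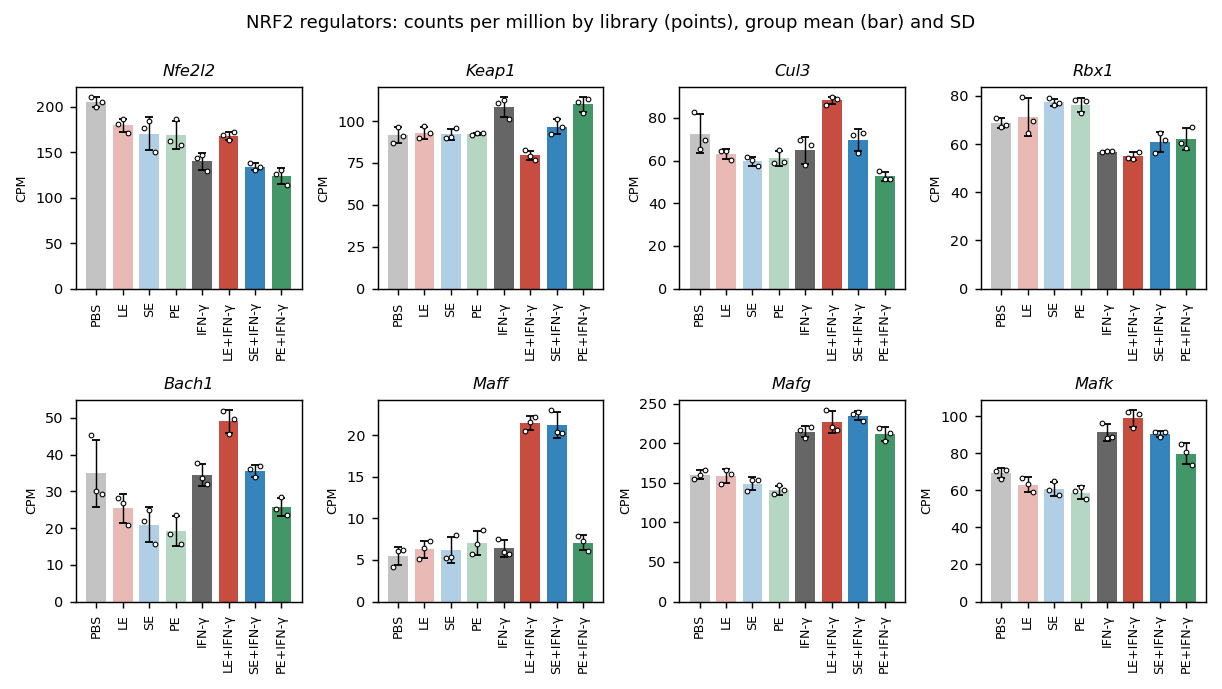
Level in CPM (linear axis from 0) of Nfe2l2, Keap1, Cul3, Rbx1, Bach1 and the small MAF genes in the 8 groups, with open points for the 3 libraries, bars for the mean and whiskers for the SD; pale bars are groups without IFN-γ. Maff is at 20.3 to 23.1 CPM in LE+IFN-γ and SE+IFN-γ and at 4.18 to 8.55 CPM in all other libraries, and Keap1 is lowest and Bach1 and Cul3 highest in LE+IFN-γ.

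Other known NRF2 targets did not move as a block. Of 31 listed, 26 could be tested, and in IFN-γ against PBS 6 rose and 4 fell, where 9.79% and 8.28% of all genes did. Cd36, a scavenger receptor, rose by 2.44 (standard error 0.14) and Blvrb, biliverdin reductase B, by 2.27 (standard error 0.09). Ephx1, microsomal epoxide hydrolase, fell by 1.635 (standard error 0.12) and Idh1, which makes cytosolic NADPH, by 1.22 (standard error 0.08). With LE added to IFN-γ 1 rose (Cd36, 1.12) and 3 fell (Abcc4 by 0.81, Trim16 by 0.71 and Idh1 by 0.60), where 9.58% and 5.93% of genes did. With SE 3 rose, Cd36 (0.76), Fth1 (0.68), the ferritin heavy chain, and Akr1b8 (0.67), and Idh1 (-0.65) and Abcc4 (-0.62) fell, where 5.01% of genes rose and 2.38% fell. Abcc4 with SE was named after its value was seen. With PE 0 were called by edgeR or by DESeq2, with 15 at an unadjusted and 8 at an adjusted p under 0.05 in edgeR. Of all 12720 genes, 3580 had an unadjusted and 10% an adjusted p under 0.05 in edgeR. The median over the list was -0.017, 0.060 and 0.061 for LE, SE and PE, beside 0.24, 0.31 and -0.13 for the 10 members.

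Antioxidant genes outside the NRF2 lists were compared in the same way. Of 20, 17 were tested in IFN-γ against PBS, where 1 rose, Prdx5 (1.305, standard error 0.08), a peroxiredoxin found in mitochondria and peroxisomes, and 1 fell, Txnip (-0.71, standard error 0.07), the inhibitor of thioredoxin, where 9.79% of all genes rose and 8.28% fell. With peptide and IFN-γ, 18 were tested, and 2 rose with LE and 3 with SE against IFN-γ, among them Glrx, glutaredoxin (0.83, standard error 0.07, and 1.13, standard error 0.07), and with SE Prdx5 (0.70, standard error 0.05). Of all genes 9.58% rose with LE and 5.01% with SE. The other gene in both counts was Ggt1, which sits below 1 CPM on average (0.836) and was named after its values were seen. With either peptide 0 of this list fell.

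Slc7a11 is a target of ATF4 as well as of NRF2, so 15 targets of ATF4 and CHOP, the factors of the integrated stress response, were set beside it. In IFN-γ against PBS 9 of 15 rose and 0 fell, where 9.79% and 8.28% of all genes did, with a median log2 fold change of 0.71, among them Ddit3 (1.69, standard error 0.20), which encodes CHOP, Nupr1 (1.68, standard error 0.17), Cth (1.48, standard error 0.10) and Atf3 (1.20, standard error 0.17). With LE added to IFN-γ 1 rose, Atf3 (0.87, standard error 0.10), and 1 fell, Phgdh (-0.67, standard error 0.06), the first enzyme of serine synthesis, and with SE 1 rose, Atf3 (0.68, standard error 0.10), where 9.58% of genes rose and 5.93% fell with LE and 5.01% rose with SE. The medians were then -0.028 and 0.040. Slc7a11 rose in both of these comparisons. The median of the list was near 0, as was that of the other NRF2 targets (-0.017 and 0.060). The part of ATF4 or of NRF2 in the rise of Slc7a11 was not tested.

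Among 8631 genes with at least 10 CPM on average, those whose 8 group means most resembled a member's were sought by the root-mean-square distance between centred log2 means. For Hmox1 they were Gclm (0.16), Prdx1 (0.18) and Slc11a1 (0.19), so that 2 of the 3 nearest genes were other members. For Gclm they were Slc11a1 (0.12), a metal transporter of the phagosome, Hmox1 (0.16) and Prdx1 (0.16). For Slc7a11, the member with the widest range of group means (2.62 on the log2 scale), they were Peli1 (0.18), Papd4 (0.18) and Nrp1 (0.18), none of them a member. The distances are descriptions over 8 groups of the same libraries.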

How the data were processed

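The authors sequenced 48 RNA libraries (poly(A) TruSeq libraries, 100-base single-end reads). Per the study's methods, uniquely aligned reads were assigned to GENCODE M12 genes (GRCm38.p5) with featureCounts, and the deposited values are raw counts per gene with no normalisation. The table held 2 repeated gene names and 0 columns without a sample. The letter-labelled libraries (24) were analysed, and the HLA-labelled ones (24) only as an alternative.

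Counts were filtered with filterByExpr, scaled by TMM and tested with the quasi-likelihood F test of edgeR 4.0.16 (R 4.3.3), with Benjamini-Hochberg adjustment over all genes tested. A gene was called at an adjusted p under 0.05 and a fold change over 1.5. IFN-γ against PBS was fitted on 2 groups, peptides with IFN-γ on 4, IFN-γ over each peptide on 6, peptides alone on 4 and interactions on 8. CPM values divide counts by the library total, with the TMM factors (0.949 to 1.06) used only in the tests, and RPKM values divide CPM by the merged exon length of GENCODE M21. On counts simulated for IFN-γ against PBS (12227 genes), 100% of 2-fold changes and 100% of 4-fold changes were recovered with 6 false calls. For the LE interaction 94% and 100% were recovered with 3 false calls, and for LE against PBS 99% and 99% with 8. Each simulation changed 200 genes, fewer than the 2213 called in IFN-γ against PBS. Genes as low as Nqo1 were not among those changed.

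The 10 members and the lists of other genes were chosen with earlier results of these data known. The 10 members and 8 regulators are named. Of the other lists, up to 4 called genes per comparison with at least 10 CPM on average are named by size of change, and for the 3 members with the widest range the 3 genes of most similar pattern. Alternatives were DESeq2 1.42.0, RLE scaling, no filter, the replicate number as a block, each replicate left out, 1 fit of all 8 groups, no fold change minimum, the HLA-labelled libraries alone and, chosen after seeing the data, subtraction of the trend on exon length and GC content over the 97% of genes with both (natural splines, 4 degrees of freedom each, with the adjusted p of the fit kept). Replicate pairs differed by more than sampling noise (chi-square per degree of freedom at least 3.89 in 24 pairs).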

Additional observations from a re-analysis of the deposited data

Results flagged for a closer look

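The response to IFN-γ differed with and without a peptide for 2 members and 3 regulators of the pathway, by the interaction term of the edgeR fit over all 8 groups (13096 genes). For LE 1 of 10 members and 3 of 8 regulators were called higher, where 11.3% of genes were higher and 7.58% lower. For SE 2 of 10 members and 2 of 8 regulators were called higher, where 5.08% of genes were higher and 2.89% lower. With LE, the interaction on the log2 scale was 0.936 for Slc7a11 (standard error 0.15, edgeR adjusted p 5.06e-05), the cystine importer, whose IFN-γ effect was 1.83 over LE and 0.89 over PBS. With LE it was also 0.603 for Cul3 (edgeR adjusted p 0.000102), 0.929 for Bach1 (edgeR adjusted p 0.00107) and 1.508 for Maff (edgeR adjusted p 8.04e-05). With SE it was 0.723 for Hmox1 (edgeR adjusted p 0.00129), 0.726 for Slc7a11 (edgeR adjusted p 0.00175), 0.745 for Bach1 (edgeR adjusted p 0.0138) and 1.505 for Maff (edgeR adjusted p 0.000219). Hmox1, the heme-degrading enzyme, had an IFN-γ effect of 1.98 over SE and 1.27 over PBS.

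Maff kept its interaction call in all 7 other settings of the letter-labelled libraries for LE (1.38 to 1.71) and for SE (1.295 to 1.62), and so did Bach1 for LE (0.81 to 1.09). Cul3 for LE did not pass without replicate 1, and its value with the length and GC trend subtracted was 0.13. Bach1 for SE did not pass without replicate 1 or without replicate 3, and Slc7a11 for SE did not pass without replicate 1 (0.60). With the trend subtracted, Slc7a11 gave 0.34 for LE and 0.38 for SE, Hmox1 0.845 for SE, Maff 1.75 for LE and 1.59 for SE, and Bach1 0.725 for LE and 0.62 for SE.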

How the results depend on the processing

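The letter-labelled results rest on 3 libraries per group, and Nqo1 on 5 to 37 counts per library, with a 95% interval of 0.25 to 2.42 in IFN-γ against PBS. Of the 41 calls of members, 40 were kept with DESeq2, 41 with RLE scaling, 40 without the filter on low counts, 37 of 38 in 1 fit of all 8 groups, and 36, 39 and 36 without replicate 1, 2 and 3. Directions of called values did not reverse in these settings. Causes were not tested.

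DESeq2 and RLE scaling each called 2 members in LE+IFN-γ against PE+IFN-γ, where 1 was called, the second being Gclm. With no fold change minimum the members called numbered 8 for LE+IFN-γ, 7 for SE+IFN-γ and 1 for PE+IFN-γ against IFN-γ, 6 for LE+IFN-γ against SE+IFN-γ, 9 for LE+IFN-γ and 8 for SE+IFN-γ against PE+IFN-γ, and 4 for SE and 2 for PE against PBS. Leaving out 1 replicate gave 1 to 2 calls for LE+IFN-γ against IFN-γ, 0 to 1 against SE+IFN-γ and 1 to 2 against PE+IFN-γ, 0 to 1 for PE against PBS, and 1 to 2 for the interaction with SE. It gave 6 to 7 for IFN-γ against PBS, and 6 to 8, 7 to 9 and 6 to 8 for IFN-γ over LE, SE and PE. For SE+IFN-γ it gave 2 to 3 against IFN-γ and 3 to 4 against PE+IFN-γ. With the length and GC trend subtracted, chosen after seeing the data, there were 2 for LE+IFN-γ against IFN-γ and 2 against PE+IFN-γ, 0 for PE against PBS, 0 for the interaction with LE and 1 for that with SE. Gclm in SE+IFN-γ against IFN-γ (0.578) also fell under the minimum there. So did Txnrd1 over SE (0.544) and Txnrd1 and Sqstm1 over PE (0.584 each).

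Libraries were taken as paired where all 3 correlations of same-numbered deviations were over 0.1. By this rule replicate numbers did not pair the libraries in any of the 13 comparisons of 2 groups (correlations from -0.106 to 0.228). Those of LE+IFN-γ against IFN-γ (0.09 to 0.219) and of PE+IFN-γ against PE (0.083 to 0.193) were all positive, so a weak pairing there is not excluded. Of all 28 pairs of groups, LE with SE, LE with PE and SE with PE, which were not compared with each other but share fits, had all 3 correlations over 0.1 (0.102 to 0.227). All 41 calls of members were kept with the block. With the replicate block 7 members were called for IFN-γ against PBS (6 without it), 7 for LE+IFN-γ against LE (6) and 4 for SE+IFN-γ against PE+IFN-γ (3). The other 13 counts were the same with the block.

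The HLA-labelled libraries alone were compared by label, although their IFN-γ labels conflict with their IFN-γ targets and their place in the deposited table with their labels, and the part of the labels in the reversals was not tested. They kept 1 of the 41 calls, lost 13 and reversed 27. They called 0 members for IFN-γ against PBS, 6, 0 and 7 for LE, SE and PE with IFN-γ against IFN-γ, 4 for LE+IFN-γ against SE+IFN-γ and 0 against PE+IFN-γ, 0 for IFN-γ over LE, SE and PE, 4 for LE and 2 for PE against PBS, and 3, 0 and 2 for the interactions with LE, SE and PE. The share of all genes called in each of these comparisons was not counted, so these counts are not read as results about the members. Of all member values 46 reversed in the HLA-labelled libraries, called in either series. For IFN-γ against PBS these were Hmox1 -0.438, Gclm -0.794, Srxn1 -0.519, Slc7a11 -0.771, Sqstm1 -0.232 and Prdx1 -0.273. For PE+IFN-γ against IFN-γ they were Hmox1 0.831, Nqo1 1.703, Gclm 1.031, Srxn1 0.608, Slc7a11 0.648, Sqstm1 0.824 and Prdx1 1.241. For LE+IFN-γ against SE+IFN-γ they were Hmox1 1.118, Gclm 0.862, Sqstm1 0.803 and Prdx1 1.073, and for SE+IFN-γ against PE+IFN-γ Hmox1 -0.763, Gclm -0.626, Slc7a11 -0.348, Sqstm1 -0.756 and Prdx1 -0.902. For IFN-γ over LE they were Hmox1 -0.14, Slc7a11 -0.191, Sqstm1 -0.167 and Prdx1 -0.448. Over SE they were Hmox1 -0.197, Nqo1 -0.38, Gclm -0.279, Txnrd1 -0.187, Srxn1 -0.175, Slc7a11 -0.326, Gsr -0.022 and Sqstm1 -0.111. Over PE they were Txnrd1 -0.156, Srxn1 -0.018, Slc7a11 -0.524, Sqstm1 -0.171 and Prdx1 -0.285. Against PBS they were Nqo1 -1.799 for LE and Slc7a11 0.396 for PE. For the interactions they were Nqo1 3.187, Gclm 1.115 and Srxn1 0.67 with LE and Nqo1 2.98 and Gclm 1.092 with PE.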

Other observations

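The 24 HLA-labelled libraries hold the same 8 group labels, but 12 of them went against their IFN-γ label on the 20 IFN-γ target genes. The libraries labelled LE and PE, without IFN-γ, had scores of 7.16 to 7.24 and 7.03 to 7.16, and those labelled IFN-γ and SE+IFN-γ had scores of 1.80 to 2.01 and 1.79 to 1.92. In the deposited table the columns alternate, each set of 3 letter-labelled libraries followed by a set of 3 HLA-labelled ones, and in 8 of 8 cases the label of the second set is another group than that of the first. The 4 sets that follow letter-labelled groups without IFN-γ had scores of 1.79 to 2.21, and the 4 that follow groups with IFN-γ had scores of 6.63 to 7.24, so that 0 of the 24 conflict with IFN-γ by position. Column order was not used to assign groups. The values below are given by label, and a value by label may belong to another treatment.

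Of the members, Prdx1 and Sqstm1 separated the HLA-labelled libraries in the same way, and the others did not. Prdx1 was at 1334, 1403 and 1951 CPM in the libraries labelled LE, at 1313, 1283 and 1283 CPM in those labelled PE, at 1325, 1268 and 1141 CPM in those labelled LE+IFN-γ and at 1065, 1181 and 1031 CPM in those labelled PE+IFN-γ. In the libraries labelled PBS, SE, IFN-γ and SE+IFN-γ it lay between 381 and 611 CPM. These are the same 4 and 4 labels that the IFN-γ targets set apart, and by position the low values follow the groups without IFN-γ and the high ones those with it. Sqstm1 was between 3053 and 3926 CPM in the first 4 labels and between 1616 and 2444 CPM in the others. The other members overlapped between these labels. Hmox1 reached 538 CPM in PBS and began at 445 CPM in LE. Gsr reached 135.6 CPM in PBS and began at 124.9 CPM in PE+IFN-γ. Gclm, Srxn1 and Slc7a11, clear in the letter-labelled libraries, overlapped here as well. The share of all genes that separate in this way was not counted.

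Hmox1 was highest in 1 library labelled LE, at 1233 CPM beside 445 and 467 CPM in the other two of that label, and was at 743, 671 and 698 CPM in those labelled LE+IFN-γ. In the libraries labelled IFN-γ it was at 304, 292 and 323 CPM. Slc7a11 ran at a higher level here, between 195 and 516 CPM, than in the letter-labelled libraries, where it lay between 32.4 and 274 CPM. Its highest value was in 1 library labelled PBS, at 516 CPM beside 263 and 271 CPM. Maff was at 16.6, 16.2 and 19.8 CPM in the libraries labelled LE and at 12.7, 9.81 and 9.57 CPM in those labelled PE, and between 1.68 and 6.56 CPM in all others.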
